A study of Homo sapiens with 6 samples.

Results

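Genes of the immediate early response and the AP-1 transcription factor family were followed in MCF10A, an established, non-tumorigenic line of human mammary epithelial cells, when growth factors were taken out of the medium. They are 10 named genes (FOS, FOSB, FOSL1, FOSL2, JUN, JUNB, EGR1, ATF3, MYC and IER3) of the 19198 genes in the table of normalized counts, chosen by name, and all 10 were among the 16988 genes that passed the filter on low values. RNA-Seq of total RNA depleted of ribosomal RNA covered 6 samples. The 3 control samples grew in DMEM:F12 with 5% horse serum, 10 µg/ml insulin, 20 ng/ml EGF, 100 ng/ml cholera toxin and 0.5 µg/ml hydrocortisone. The 3 depleted samples grew in DMEM:F12 with 5% horse serum and none of these 4 additives. The paper lists antibiotics for both media, and glutamine for the full medium only. It kept depleted cells in the depleted medium for days, until their shape changed, and gives no separate time for the RNA samples. The values thus describe a later state and not the first hours of withdrawal. Because all 4 additives were left out together, the part of each cannot be told apart, and because serum stayed in both media neither condition was free of mitogens. All samples are 1 cell line, nothing in the labels ties replicates to separate cultures, the design text of the deposit speaks of 2 replicates where the labels and the table hold 3 samples per condition, and the p-values therefore measure the spread between these samples, which may be technical.

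Immediate early genes are transcribed within minutes of a stimulus such as a growth factor, without new protein synthesis, and their transcripts are short-lived. Many of them encode transcription factors. AP-1 is a dimer of a Jun protein (JUN, JUNB, JUND) with another Jun, a Fos (FOS, FOSB, FOSL1, FOSL2) or an ATF protein, and it binds to TGANTCA-like elements of genes for proteases, cytokines and cell cycle regulators. EGF acts through RAS, RAF and ERK, which phosphorylate the ternary complex factors that sit with SRF on CArG boxes of promoters such as those of FOS and EGR1, whereas cholera toxin raises cAMP, which acts through CREB at the cAMP response element and its shorter form TGACGT. In mammary epithelium these genes are best known as early responders to EGF.

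The promoters of the 4 genes whose levels varied most between samples of one condition (FOS, FOSB, EGR1 and ATF3) are shown to make these elements visible. Each stretch runs from -140 to -1 before the RefSeq start site on GRCh38.p14 (hg38), on the plus strand, at chr14:75278688-75278827 for FOS, chr19:45467856-45467995 for FOSB, chr5:138465339-138465478 for EGR1 and chr1:212565267-212565406 for the upstream of the 2 starts of ATF3. Capitals mark matches, on either strand, to TGACGT, TGACNTCA (an ATF and AP-1 form), TGANTCA (the AP-1 form) or the CArG box.
FOS: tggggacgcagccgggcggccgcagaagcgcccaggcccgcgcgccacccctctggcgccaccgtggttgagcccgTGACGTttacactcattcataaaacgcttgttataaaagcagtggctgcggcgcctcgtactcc
FOSB: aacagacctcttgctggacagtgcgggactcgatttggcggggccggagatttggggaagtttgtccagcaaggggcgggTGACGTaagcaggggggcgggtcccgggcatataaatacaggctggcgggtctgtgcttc
EGR1: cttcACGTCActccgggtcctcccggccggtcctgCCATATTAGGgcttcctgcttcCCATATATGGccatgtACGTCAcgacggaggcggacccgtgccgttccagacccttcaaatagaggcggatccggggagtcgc
ATF3: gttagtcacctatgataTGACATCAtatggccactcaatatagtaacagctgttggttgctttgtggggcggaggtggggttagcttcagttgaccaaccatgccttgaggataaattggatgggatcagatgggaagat
FOS and FOSB each held 1 TGACGT, which began at -64 and -60. EGR1 held 2 copies of that element on the minus strand, at -136 and -67, and 2 CArG boxes between them, at -105 and -83. ATF3 held TGACATCA at -123, the same 8 letters as the promoter of JUN at -67, and the promoter of FOSL2 held TGACGT at -66. The promoter of JUNB and the downstream start of ATF3 held none of the 4 in the 250 bases before the start. FOS and FOSB held no CArG box in those 250 bases. Bases further upstream were not searched, so a CArG box there would be missed. Of 34943 RefSeq promoters of that length, 7.09% held TGACGT, 6.86% TGACNTCA, 6.59% TGANTCA and 1.16% a CArG box. A TGACNTCA match can overlap a TGACGT match, and a match describes the letters and not a used site. Entries were matched for 7 of the 10 genes, and FOSL1, IER3 and MYC had no entry.

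Depth ran from 7472418 to 28672630 reads on genes, and the sample numbered 2 was the deepest of each condition, with 28672630 reads in control and 24407075 in depleted cells. The deposited counts are divided by size factors, so depth enters through precision, and the members rested on between 5 and 10718 reads in a sample. The labels call the cells luminal ductal cells. KRT8 was between 2442 and 8635 normalized counts in control cells and between 7755 and 19305 in depleted cells, and KRT5, a basal keratin, between 12739 and 38503 and between 562 and 14997, so markers of both layers were present. ESR1, the estrogen receptor, was between 63.9 and 205.5 in control cells and between 4.58 and 32.8 in depleted cells. All 7 mesenchymal markers (VIM, CDH2, FN1, PDGFRB, COL1A1, COL1A2 and COL3A1) were called higher without growth factors. Their summed level was 3845 to 11325 normalized counts in control and 119008 to 192075 in depleted samples. PDGFRB, with a control mean of 6.95 and a depleted mean of 1373, passed the filter on low values (a mean of 10) only through the depleted samples. Its call is therefore not independent of that filter. In bulk RNA, a change in the share of cells of one kind and a change in the RNA per cell cannot be told apart.

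Of the 10 genes, only IER3 was called by limma (2-fold or more, at an adjusted p under 0.05 by Benjamini and Hochberg). That is 1 of 10 beside 6.33% of all genes tested (1076 of 16988), of which 4.36% were called higher and 1.97% lower without growth factors. The log2 fold change was positive for 5 of the 10 and negative for 5, with a median of 0.03 for the 10 genes and -0.03 for all genes tested. The groups did not overlap for 3 of them. IER3 and JUN lay in every depleted sample above every control sample, as did 13.5% of all genes, and MYC lay in every depleted sample below every control sample, as did 12.1%. An unadjusted p under 0.05 was found for these 3 genes and for 3400 genes in all (20.0%). On the recovered reads, edgeR also called IER3 alone among the 10 (5.72% of all genes were called), and DESeq2 called IER3 and MYC (12.4% of all genes).

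**Figure D1:**
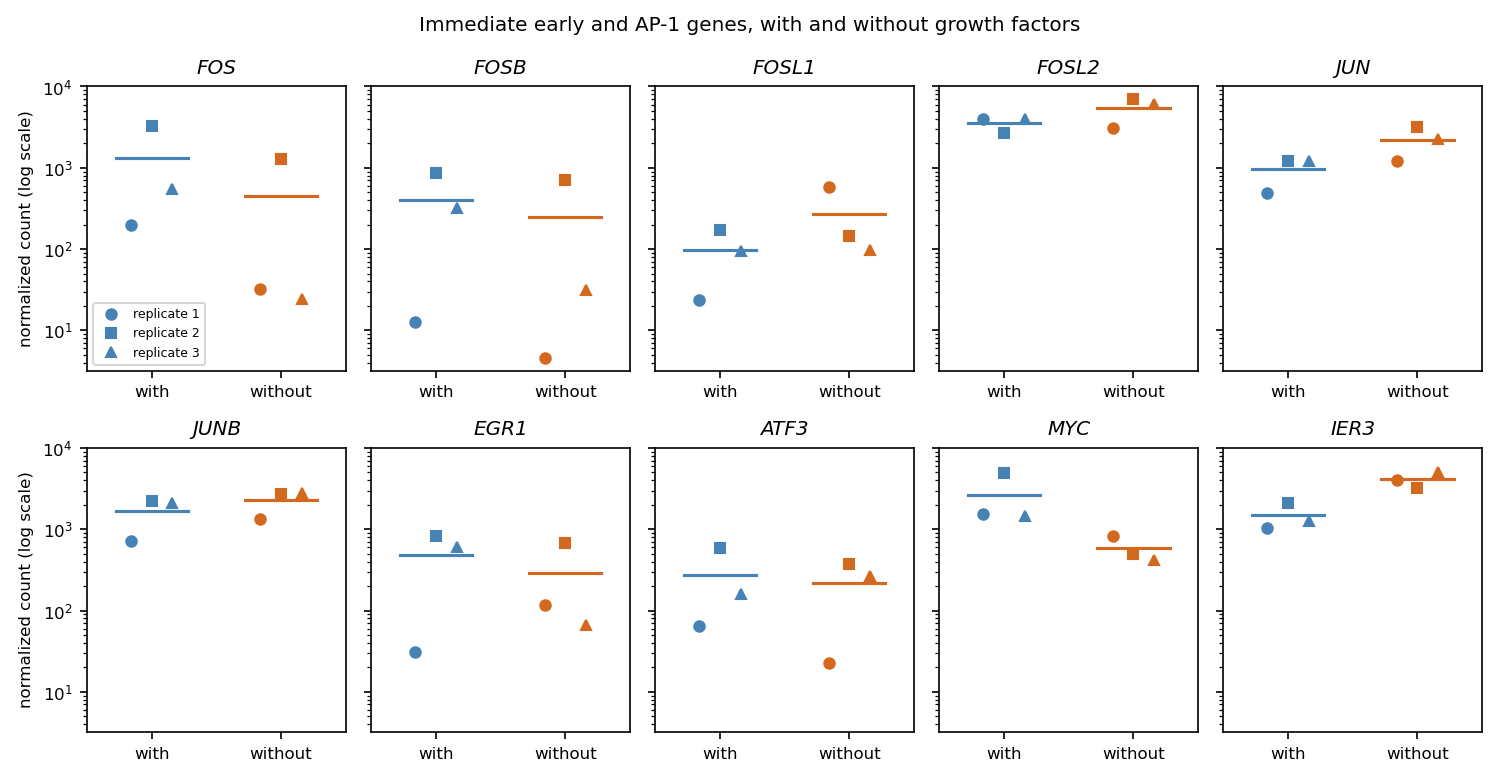
Normalized counts (log scale) of the 10 genes in each sample, with growth factors (blue) and without (orange); symbols mark the replicate number and lines the mean of 3 samples. FOS, FOSB, EGR1 and ATF3 spread over more than 10-fold in at least 1 condition. IER3 and, narrowly, JUN lie higher in every depleted sample than in any control sample, and MYC lies lower.

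IER3, on chr6:30743199-30744548, encodes a short-lived early response protein that modulates survival and ERK signaling. With growth factors it read 1031, 2123 and 1282 normalized counts, and without them 4084, 3208 and 5026. The lowest depleted sample lay above the highest control sample. The mean was 1479 ± 572 (SD, n = 3) with growth factors and 4106 ± 910 (SD, n = 3) without, and the log2 fold change was 1.52 (SE 0.35, 95% confidence interval 0.72 to 2.31, limma adjusted p = 0.039), or 2.86-fold higher. Its spread within a condition (SD 0.44 on the log2 scale) was under the median of all genes (0.55). The call was kept in 2 of the 6 fits that left out 1 sample. Calls over all genes also moved in these fits, from 1076 with all samples to between 453 and 2474. The adjusted p was 0.13 without control replicate 1, 0.089 without depleted replicate 1, 0.090 without depleted replicate 2 and 0.17 without depleted replicate 3, whereas it was 0.028 without control replicate 2 and 0.042 without control replicate 3, and the log2 fold change stayed between 1.29 and 1.81 over these 6 fits. It was also not called in limma without the trend (0.077), and over all 17 alternatives it was called in 10, with adjusted p from 0.0028 to 0.17.

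MYC, on chr8:127735434-127742951, encodes the bHLH transcription factor that drives ribosome production and cell growth. It read 1557, 4964 and 1473 normalized counts in control samples and 833, 492 and 425 in depleted samples. Every depleted sample lay below every control sample, and control replicate 2 was more than 3-fold above the other control samples. It differed by -2.01 on the log2 scale (SE 0.50, 95% confidence interval -3.16 to -0.86), and the adjusted p of 0.053 missed the threshold. MYC was called once a single sample, control replicate 3, was left out (adjusted p = 0.030). Without control replicate 2 the log2 fold change was -1.44 (adjusted p = 0.088), and over the 6 fits that leave out 1 sample the adjusted p ranged from 0.030 to 0.19 while the log2 fold change stayed negative.

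The Fos family contributes the partners that bind DNA only together with Jun. FOS, on chr14:75278826-75282230, read 199.3, 3229 and 545 normalized counts in control samples and 32.0, 1287 and 24.6 in depleted samples. The groups overlapped, since depleted replicate 2 lay above 2 of the 3 control samples. The log2 fold change was -2.78 (SE 1.52, 95% confidence interval -6.25 to 0.69, limma adjusted p = 0.37). The highest control sample was 16.2 times the lowest and the highest depleted sample 52.3 times the lowest. Without depleted replicate 2 the difference was -4.60 (adjusted p = 0.068), and without control replicate 2 it was -1.68 (adjusted p = 0.66). On the recovered reads FOS differed by -1.48 with edgeR (adjusted p = 0.64) and by -1.53 with DESeq2 (adjusted p = 0.69).

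FOSB, the close homologue of FOS on chr19:45467995-45475179, read 12.5, 868 and 322 normalized counts in control samples and 4.58, 700.2 and 31.3 in depleted samples. Both conditions held low and high samples, with raw reads of 10, 1482 and 327 in control and 5, 1068 and 14 in depleted samples. FOSB differed by -1.64 on the log2 scale (SE 1.91, 95% confidence interval -6.00 to 2.73, adjusted p = 0.71), and it ranged from -3.54 to -0.05 when 1 sample was left out. The difference was -0.63 with edgeR and -0.69 with DESeq2. FOS and FOSB thus had lower means without growth factors, 448 against 1324 for FOS and 245 against 401 for FOSB, but neither difference passed the test.

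FOSL1 and FOSL2 lack the transactivation domain of FOS and are known as later and longer-lived members of the family. FOSL1, on chr11:65892049-65900573, read 23.8, 172 and 94.4 normalized counts in control samples and 575, 144 and 96.1 in depleted samples. Depleted replicate 1 stood apart, and the other depleted samples lay between the lowest and the highest control sample. The log2 fold change of 1.44 (SE 0.85, 95% confidence interval -0.51 to 3.38, adjusted p = 0.41) fell to 0.68 without depleted replicate 1 and to 0.64 without control replicate 1. Depleted replicate 1 also had the lowest summed luminal markers of the depleted samples (18326 normalized counts against 20741 and 31554) and the lowest basal markers (26568 against 80894 and 149473). Its summed mesenchymal markers were lowest too (119008 against 192075 and 146749), with FN1 at 48562 against 159901 and 117025. Single markers went either way. VIM (44834 against 16542 and 19283), PDGFRB, COL1A2 and COL3A1 were highest in this sample, FN1 and CDH2 lowest and COL1A1 between. KRT5 was lowest (562 against 10908 and 14997) and KRT14 highest (980.3 against 193 and 306). The part of this in the FOSL1 value was not tested.

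FOSL2, on chr2:28392448-28417317, read 3967, 2711 and 4029 normalized counts in control samples and 3105, 7027 and 6131 in depleted samples. The groups overlapped through depleted replicate 1, and the log2 fold change was 0.54 (SE 0.38, 95% confidence interval -0.33 to 1.41, adjusted p = 0.50). FOSL2 was the least variable Fos gene, with a within-condition SD of 0.50 on the log2 scale beside 1.39 for FOSL1, 2.66 for FOS and 3.34 for FOSB.

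Per kb of exon, which allows levels to be compared roughly between genes, FOSL2 was the main Fos transcript in 5 of the 6 samples. The length was that of all Gencode v44 exons of a gene merged, which can exceed the transcript in use, while reads were counted on Gencode v22. Shares and rankings per kb are therefore approximate. Its share of the summed Fos family level was 87.7%, 23.1% and 66.8% in control samples and 57.9%, 61.8% and 93.0% in depleted samples. The share of FOS was 9.91%, 61.8% and 20.3% in control samples and 1.34%, 25.4% and 0.84% in depleted samples, so control replicate 2 was the sample in which FOS led. FOSL1 made up 40.7% of the family in depleted replicate 1 and between 2.0% and 5.95% in the other 5 samples. The family sum was 631, 1639 and 842 normalized counts per kb in control and 749, 1588 and 920 in depleted samples, so the sums overlapped while their makeup differed from sample to sample.

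**Figure D2:**
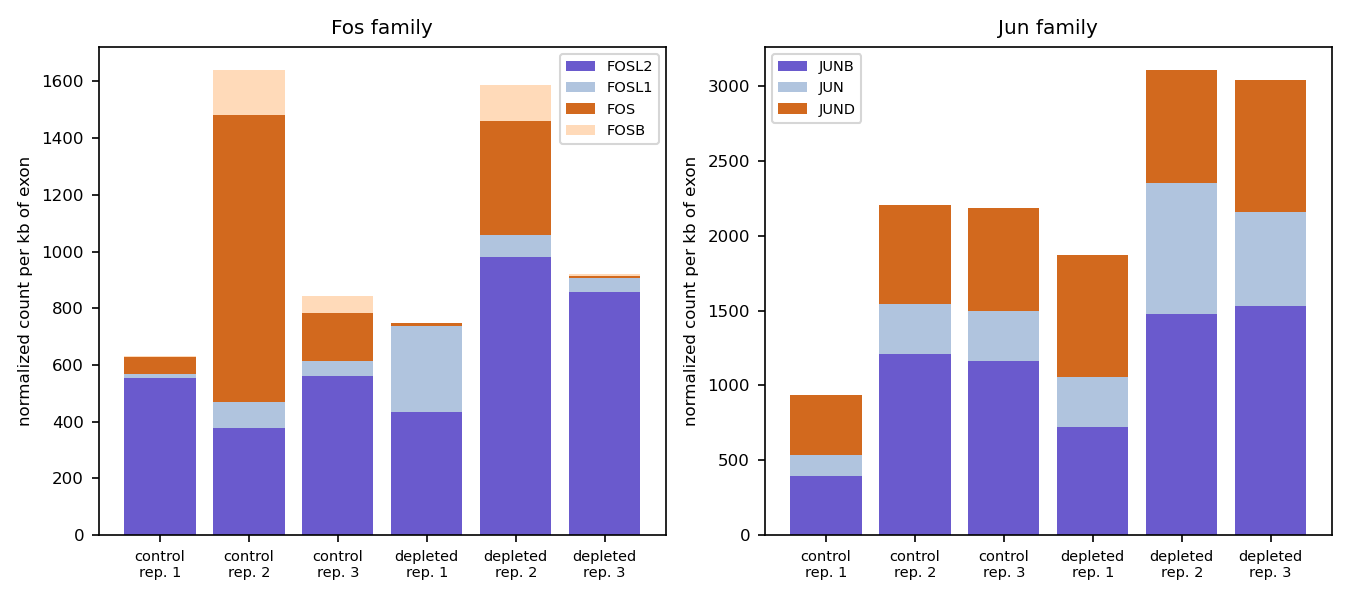
Summed normalized counts per kb of exon of the Fos family (left) and the Jun family (right) in each sample, stacked by gene. FOS makes up 61.8% of the Fos family in control replicate 2 and FOSL1 40.7% in depleted replicate 1, whereas the Jun family is split among JUN, JUNB and JUND in every sample.

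The Jun proteins form AP-1 on their own or with a Fos protein. JUN, on chr1:58776845-58784048, read 496, 1197 and 1196 normalized counts in control samples and 1200, 3180 and 2261 in depleted samples. The groups did not overlap, but depleted replicate 1 (1199.9) lay next to control replicate 2 (1197.5). JUN differed by 1.20 on the log2 scale (SE 0.47, 95% confidence interval 0.12 to 2.27). Its adjusted p was 0.20, and it ranged from 0.11 to 0.51 when 1 sample was left out, so JUN was not called although its groups did not overlap.

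JUNB, on chr19:12791486-12793315, antagonizes JUN in some settings. It read 722, 2216 and 2134 normalized counts in control samples and 1325, 2703 and 2806 in depleted samples. Replicate 1 was the lowest in both conditions, and the groups overlapped. The log2 fold change was 0.52 (SE 0.50, 95% confidence interval -0.62 to 1.66, adjusted p = 0.64), and without control replicate 1 it was -0.011. JUND, the more constitutive Jun gene, read 776, 1278 and 1333 in control and 1576, 1448 and 1708 in depleted samples, with a log2 fold change of 0.52 (adjusted p = 0.39). Per kb, JUN made up 14.7%, 15.0% and 15.1% of the Jun family in control samples and 17.7%, 28.3% and 20.5% in depleted samples. The summed Jun family was 934, 2204 and 2187 normalized counts per kb in control and 1872, 3106 and 3043 in depleted samples, and these sums overlapped.

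EGR1 and ATF3 are zinc finger and bZIP factors that respond to mitogens and to stress. EGR1, on chr5:138465479-138469303, read 31.3, 817 and 608 normalized counts in control samples and 118, 674 and 67.1 in depleted samples. Low and high samples occurred in both conditions. Its log2 fold change was -0.52 (SE 1.27, 95% confidence interval -3.41 to 2.38, adjusted p = 0.87), and it was positive without control replicate 2 (0.33), control replicate 3 (0.12) or depleted replicate 3 (0.17) and was -2.0 without control replicate 1.

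ATF3, on chr1:212565334-212620777, read 63.9, 597 and 159 normalized counts in control samples and 22.9, 378 and 264 in depleted samples. The groups overlapped throughout. Its log2 fold change was -0.46 (SE 1.12, 95% confidence interval -3.02 to 2.10, adjusted p = 0.87), and it was positive without control replicate 2 (0.39) or depleted replicate 1 (0.78). It was -0.25 with edgeR and -0.28 with DESeq2. For EGR1 and ATF3 the data give no direction, and intervals this wide include changes of more than 4-fold either way.

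**Figure D3:**
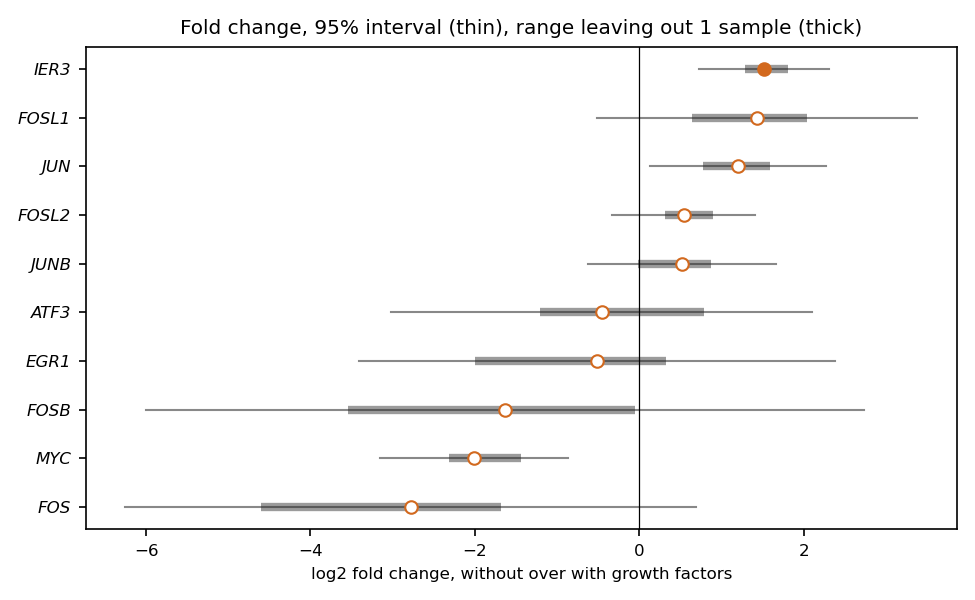
Log2 fold change (without over with growth factors, x axis) of the 10 genes with its 95% confidence interval (thin line) and its range when each of the 6 samples is left out in turn (thick line); a filled point is a called gene. The intervals of IER3, JUN and MYC do not include 0, and only IER3 was called.

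The 10 genes split by how far samples of one condition lay apart. The within-condition SD was 3.34 on the log2 scale for FOSB, 2.66 for FOS, 2.19 for EGR1 and 1.91 for ATF3, and these 4 lay above the 98th percentile of all genes tested. The other 6 ran from 0.44 for IER3 to 1.39 for FOSL1. The median was 1.09 for the 10 genes and 0.55 for all genes. FOS rested on 159, 5511 and 554 reads in control and 35, 1963 and 11 reads in depleted samples, and the floor of 3 reads corresponds to 1.76 to 6.71 normalized counts.

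The 4 most variable genes leaned the same way in the samples numbered 1 and 2, but not in those numbered 3. The sample numbered 2 was the highest of its condition, in both conditions, for FOS, FOSB, EGR1, ATF3 and, narrowly in control cells, JUN. That is 5 of the 10 genes, beside 4.95% of all genes tested. Taken one condition at a time, depleted replicate 2 was the highest depleted sample for 6 of the 10 genes (29.6% of all genes) and control replicate 1 the lowest control sample for 8 of the 10 (27.2%). FOS lay 2.19 above its condition mean on the log2 scale in control replicate 2 and 3.65 above it in depleted replicate 2, and FOSB 2.48 and 3.8 above. This arrangement was noticed in the data, and the counts are given as a description. Depth moved with it, the samples numbered 2 being the deepest, and the part of depth in it was not tested.

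**Figure D4:**
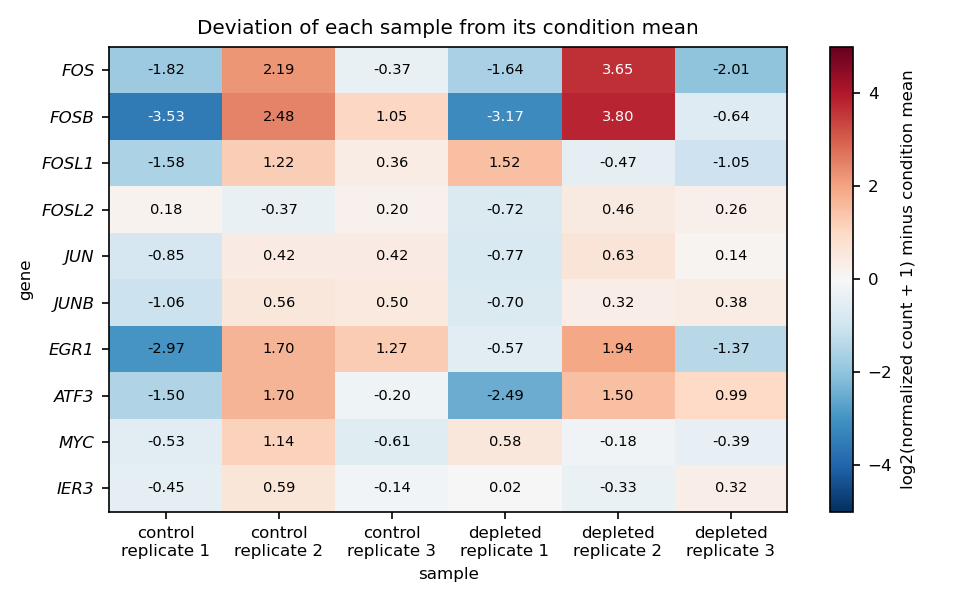
Deviation of log2(normalized count + 1) from the mean of its condition for each of the 10 genes (rows) in each sample (columns); red is above and blue below. FOS, FOSB, EGR1 and ATF3 are red in both samples numbered 2 and blue in both samples numbered 1, whereas IER3 stays within 0.59 of its mean.

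With both samples numbered 2 left out, a setting chosen after the values were seen, FOS differed by -3.51 on the log2 scale (adjusted p = 0.081), FOSB by -2.30 (adjusted p = 0.65), EGR1 by -0.64 and ATF3 by -0.36, while FOSL1 differed by 2.28 and FOSL2 by 0.13. IER3 was then higher by 1.98 (adjusted p = 0.084) and MYC lower, at -1.35 (adjusted p = 0.29), and none of the 10 genes was called by limma with the 2 samples left in each condition, where 1.25% of all genes were. FOS, MYC and IER3 then had an unadjusted p under 0.05 in limma. The share of all genes with such a p in this setting was not computed, so these genes have no background to be read against.

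Ordered by level per kb of exon, IER3 led with growth factors at 1095 ± 423 normalized counts per kb (SD, n = 3), followed by JUNB at 924 ± 459, FOSL2 at 498 ± 104, MYC at 436 ± 326, FOS at 416 ± 520 and JUN at 266 ± 112, and neighbors in this order lay within one another's spread. EGR1 (155 ± 130), FOSB (72.2 ± 78.0), ATF3 (68.4 ± 71.1) and FOSL1 (51.3 ± 39.3) closed it. Without growth factors IER3 was at 3041 ± 674, and its lowest sample (2376) lay above the highest JUNB sample (1533). JUNB at 1245 ± 452, FOSL2 at 757 ± 287 and JUN at 611 ± 273 followed and overlapped one another. MYC ranked 4 of the 10 with growth factors and 7 without, where it was at 95.5 ± 35.8.

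The genes around these 10 were read from 6 companion lists with 90 genes, of which 81 were tested, 6 were called higher and 0 lower by limma without growth factors. An unadjusted p under 0.05 was found for 12 of the 81 on the higher and 5 on the lower side, beside 20.0% of all genes in both directions together. Of the companion genes, edgeR called 5 higher and 0 lower (5.72% of all genes), and DESeq2 8 higher and 2 lower (12.4% of all genes), so these counts lay near the shares of all genes. Counts and medians of each list stand here beside those of all genes tested, of which 4.36% were called higher with a median of -0.03. Of the AP-1 partners, 11 of 13 were tested and 1 was called, JDP2, which encodes a repressor that dimerizes with JUN. It read 159, 128 and 73.8 normalized counts in control and 365, 302 and 436 in depleted samples, all depleted samples lying above the controls, with a log2 fold change of 1.66 (adjusted p = 0.044). That call was lost without control replicate 1 (adjusted p = 0.062), control replicate 2 (0.091), depleted replicate 1 (0.10), depleted replicate 2 (0.12) or depleted replicate 3 (0.20), and also with quantile normalization (0.058), in limma without the trend (0.059) and without both samples numbered 2 (0.23). JDP2 was called in 8 of 17 alternatives. The list's median was 0.52, and its largest value was that of BATF3 (2.11, adjusted p = 0.27). BATF3, with a control mean of 4.38 and a depleted mean of 17.2, reached the filter mean of 10 only through the depleted samples.

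Of 23 further immediate early genes, 20 were tested and 1 was called. CCN1, which encodes a secreted matricellular protein and is also known as a target of SRF and YAP, read 96.5, 301 and 388 normalized counts in control samples and 3690, 4631 and 3551 in depleted samples. The groups lay far apart, and the log2 fold change was 4.12 (SE 0.49, adjusted p = 0.0027). The median of the list was 0.50, with 14 positive and 6 negative values, and NR4A2, a nuclear receptor, had the lowest (-1.25, adjusted p = 0.32). EGR3, a relative of EGR1, read 2.51, 62.7 and 54.1 in control and 38.4, 77.4 and 24.6 in depleted samples.

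The 18 upstream kinases and factors had a median of -0.02, and none was called by limma or edgeR, with 3 at an unadjusted p under 0.05 in each. DESeq2 called SRF and RPS6KA1. SRF, the factor of the CArG box, had the largest positive value, 505, 674 and 525 normalized counts in control against 841, 1412 and 1836 in depleted samples (log2 fold change 1.20, adjusted p = 0.082), and it was called without depleted replicate 1 (adjusted p = 0.039). RPS6KA1, which encodes the ERK-activated kinase RSK1, had the most negative value (-0.99, adjusted p = 0.12), and it was called without control replicate 3 (adjusted p = 0.019).

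Of 16 known AP-1 target genes 12 were tested, and these had positive values in 12 of 12, with a median of 1.71, and 4 were called higher. MMP1, IL6 and MMP13 had control means of 0, 1.44 and 9.64 and reached the filter mean of 10 only through the depleted samples. For these genes the filter favored a rise, so their positive values and the calls of MMP1 and IL6 are not independent of it. The median of all genes tested was -0.03, and their share of positive values was not computed. PLAU, the urokinase plasminogen activator, read 426, 205 and 425 normalized counts in control and 9818, 6599 and 10802 in depleted samples, a log2 fold change of 4.73 (adjusted p = 0.00051). CCND1, encoding cyclin D1, read 1355, 4257 and 735 against 11808, 8902 and 10258, a log2 fold change of 2.66 (adjusted p = 0.031). The groups did not overlap for either gene. MMP1, interstitial collagenase, was at 0 reads in the 3 control samples and at 6.41, 101 and 93.9 in depleted samples, which is at least 23.8-fold higher against the mean of the floors of 3 reads per library. IL6, a cytokine gene, rested on 0, 4 and 2 reads in control and 25, 54 and 15 in depleted samples (log2 fold change 3.85, adjusted p = 0.018, and 1.82 with a pseudocount of 10). VEGFA, an angiogenic growth factor, was the lowest at 0.01.

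PLAU and CCN1 were called in each of the 17 alternatives. CCND1 was called in 11 of 17, and not with edgeR (adjusted p = 0.064), in limma without the trend (0.062), nor without control replicate 1 (adjusted p = 0.12) or depleted replicate 1 (0.078), 2 (0.093) or 3 (0.10), IL6, called in 13 of 16, was not called without depleted replicate 2 (0.10), depleted replicate 3 (0.093) or both samples numbered 2 (0.18). MMP1, called in 10 of 16, was not called with a pseudocount of 10 (0.073), without both samples numbered 2 (0.23), nor without control replicate 1 (0.073) or 2 (0.061) or depleted replicate 2 (0.11) or 3 (0.10). The 7 mesenchymal markers moved with these genes, as given above, and their part in the values of PLAU, MMP1, IL6 and CCND1 was not tested.

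MYC acts with MAX and is opposed by the MXD and MNT factors. None of these 7 partner genes was called by limma, edgeR or DESeq2 (1 had an unadjusted p under 0.05 in limma), the median was -0.14, and the extremes were MXD3 (0.50, adjusted p = 0.57) and MXD1 (-0.79, adjusted p = 0.20). MYC target genes, which act in ribosome production and metabolism, were negative in 12 of 13, with a median of -0.59, and 0 of the 13 were called by limma or edgeR. The share of negative values among all genes tested was not computed. An unadjusted p under 0.05 was found for 1 of the 13 in limma and 2 in edgeR, and DESeq2 called NPM1. Control replicate 2 was the highest control sample for each gene of the list. Without both samples numbered 2, an unadjusted p under 0.05 in limma was found for 0 of the 13 on the lower and 1 on the higher side. NPM1, encoding nucleophosmin, read 12202, 14564 and 5705 normalized counts in control and 4419, 4876 and 4168 in depleted samples (log2 fold change -1.17, adjusted p = 0.14), and it was called without control replicate 3 (adjusted p = 0.011). CDK4 was the positive one (0.81, adjusted p = 0.33). Summed over the list, control samples read 50984, 70496 and 26956 and depleted samples 45633, 27047 and 26843, so the sums overlapped through control replicate 3. MYC itself was at 1473 in that sample, above every depleted sample.

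**Figure D5:**
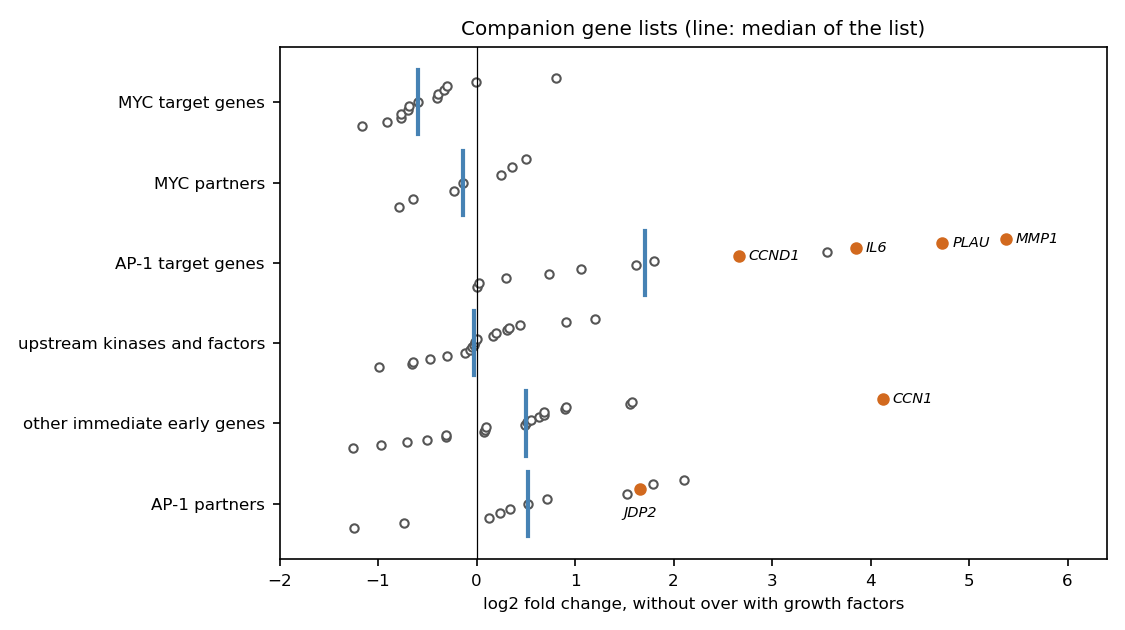
Log2 fold change (without over with growth factors, x axis) of every tested gene of the 6 companion lists; filled points are called genes and the blue line is the median of the list. The medians run from -0.59 for MYC target genes to 1.71 for AP-1 target genes, and the 6 called genes all lie to the right.

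Heat shock genes, which mark a stress response, were read beside the immediate early genes. None of 10 was called by limma or edgeR (1 and 2 had an unadjusted p under 0.05), DESeq2 called HSPD1, their median was 0.21, and their summed level was between 32514 and 91274 normalized counts in control and between 50174 and 74689 in depleted samples. HSPB1 had the largest positive value (0.83, adjusted p = 0.53) and HSPD1 the most negative (-1.53, adjusted p = 0.079), and HSPD1 was called without control replicate 3 (adjusted p = 0.0053). In the summed level control replicate 2, where FOS was highest, was also the highest sample, whereas depleted replicate 2 lay between the other depleted samples. Single genes went either way. HSPA8 (49508 normalized counts), DNAJA1, HSP90AA1, HSPE1 and HSPD1 were highest of the control samples in control replicate 2. HSPA1A, HSPA1B, HSPH1, DNAJB1 and HSPB1 were highest in control replicate 1, where FOS was lowest of the control samples.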

How the data were processed

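The authors aligned 100-base single-end reads to hg38 (TopHat2), assigned them to Gencode v22 genes (HTSeq) and scaled each sample by its DESeq2 size factor. The deposited signal is therefore a normalized count per gene, not divided by length. All values (100%) were whole multiples of 1 read within 0.01 read, so reads could be recovered. Gencode v44 (hg38) supplied names and coordinates (18913 of 19198 identifiers).

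The test covered 16988 genes (mean normalized count 10 or more) and used limma 3.58.1 (lmFit, eBayes with trend) on log2(normalized count + 1), 3 depleted against 3 control samples. Fold changes are on that scale, which understates low genes. A call needed a Benjamini-Hochberg adjusted p under 0.05 and 2-fold. The procedure was tested on simulated data, where it missed some of the genes set to differ and made some false calls. Alternatives were edgeR 4.0.16 and DESeq2 1.42.0 on recovered reads, other pseudocounts, filters and scalings, a replicate block, and samples left out. The member genes and all lists were chosen with earlier results of these data known. Named are all 10 members and, of each companion list, every called gene and the largest rise and fall, except 1 gene that is not reported here. BATF, MAFA, EGR2, EGR4, ARC, MMP3, MMP9, MMP10, SPRR1B, PGR, ELF5, CD68, CD3E and ITGAM were not analysed here. EGR3, JUND, MMP13, the heat shock genes other than HSPB1 and HSPD1, and the marker genes given with values were named after their values were seen. PTPRC, an immune marker, was at most 1.97 normalized counts in control and 10.1 to 13.8 in depleted samples. Of 9 luminal markers 7 were tested and KRT19 was called lower, and of 7 basal markers ACTA2 and MYLK were called higher and TP63 lower. Of 4 endothelial markers 3 were tested and CDH5 was called higher. CDH5, with a control mean of 5.93 and a depleted mean of 81.6, reached the filter mean of 10 only through the depleted samples. The floor of 3 reads covers counting error only.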

Additional observations from a re-analysis of the deposited data

How the results depend on the processing

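The number of the 10 genes called was 1, and it stayed 1 (IER3) with other pseudocounts, a mean of at least 50, the same total, quantile normalization and edgeR. It was 2 (IER3 and MYC) with no filter on low values, with DESeq2 and at an adjusted p under 0.1, and 0 without the trend in limma. With 1 sample left out it ran from 0 to 2, that of companion genes from 2 to 15 around 6, and that of all genes from 453 to 2474 around 1076. With both libraries numbered 2 left out, a setting chosen after seeing the data, the counts were 0, 3 and 212. DESeq2 called 10 companion genes and 2112 genes in all, and an adjusted p under 0.1 gave 1706 genes in all. The replicate number was tried as a block although nothing in the labels pairs the samples by number. The correlations of same-numbered deviations were -0.073, -0.28 and -0.32, and no sample correlated best with its own number. With 3 samples per condition these correlations cannot settle whether same-numbered samples were handled together. The replicate block gave 2 called genes of the 10, FOS (adjusted p = 0.018) and MYC (0.036), while IER3 was at 0.077, and 967 genes in all, and JDP2 lost its call (0.094). Signs changed when 1 sample was left out for JUNB (-0.011 to 0.87), EGR1 (-2.0 to 0.33), ATF3 (-1.21 to 0.78) and VEGFA (-0.23 to 0.38). VEGFA was also negative with both libraries numbered 2 left out (-0.33), with edgeR (-0.034) and with DESeq2 (-0.066). BATF3 was at 0.90 with a pseudocount of 10 and MXD3 at 0.88 with both libraries numbered 2 left out. The causes were not tested. Scaling to the same total or by quantiles moved the median of all genes from -0.03 to 0.02 and -0.07. Few reads limit the precision of low values most, as for IL6, MMP1 and, in some samples, FOSB. The part of depth in these values was not tested.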
